A study of Homo sapiens with 30 samples.

Results

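The genes described here are the ligands and receptors that steer growing axons: the ephrins and Eph receptors, the semaphorins with their plexin and neuropilin receptors, the Slits and their Robo receptors, and the netrins with DCC and UNC5. They were chosen by name from the RNA count tables of a study of RUES2 human embryonic stem cells, with antisense genes and pseudogenes left out and with at least 10 counts required in at least 2 libraries. The rule gave 69 genes of the 27348 in both tables: 9 EphA and 5 EphB receptors, 5 ephrin-A and 3 ephrin-B ligands, 7 secreted and 13 membrane-bound semaphorins, 8 plexins, 2 neuropilins, 3 Slits, 3 Robos, 5 netrins and 6 genes of the DCC and UNC5 group. UNC5CL came in through its name and is counted with the last of these. ROBO4 and NTN3, with at most 4 and 11 counts in any library, fell short of the rule, and PLXNB2 had no count in any library. Of the 69 genes, 68 passed the filter on low counts of the statistical model. EPHA5, an EphA receptor, did not, and stood at 0 to 0.392 CPM (counts brought to a common library total).

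These 4 families act at contacts between cells or over short distances. Ephrins are held on the cell surface and bind Eph receptor tyrosine kinases on neighbouring cells, with the ephrin-B ligands able to signal back into their own cell. Secreted semaphorins act mostly through a neuropilin paired with a plexin, membrane semaphorins mostly through plexins directly, Slits through Robos, and netrins through DCC and UNC5. Outside the nervous system the same molecules take part in cell sorting, cell migration and vessel formation in the early embryo, and many of them are active before any neuron exists.

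All cells were RUES2, an established human embryonic stem cell line, grown in TeSR E7 medium with ROCK inhibitor. RNA was collected at 48 h or 24 h, with 2 libraries in each of 8 groups. At 48 h, WNT_CPI_ACT had received Wnt3a at 100 ng/mL and CPI-203 at 1 µM on the first day, followed by Activin A at 10 ng/mL on the second, WNT_ACT had received Wnt3a and then Activin A, WNT_E7 had received Wnt3a and then medium without Activin A, and E7_ACT had received Activin A alone, on the second day. At 24 h, WNT_CPI had received Wnt3a with CPI-203, E7_CPI had received CPI-203, WNT had received Wnt3a, and E7 was untreated. Wnt3a activates the beta-catenin pathway, CPI-203 blocks the BET bromodomain proteins that read acetylated chromatin, and Activin A activates SMAD2 and SMAD3. The labels do not tell whether the replicates were separate cultures. A p-value here therefore covers the spread among these libraries, which may be technical, and nothing beyond it. A group was also set against another day's group, WNT_CPI_ACT against WNT_CPI, which changes the time and the agents together.

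Library totals ran from 36268324 to 43347733 counts, and 15478 to 16327 genes had at least 10 counts. The values of E7_CPI replicate 1 are not in the order of the gene names beside them. Its largest absolute Spearman correlation with another library was 0.0071 as deposited, and 0.954 to 0.986 once its rows were taken in the order of the other table (replicate 2). Read in that order, it lay very close to E7_CPI replicate 2: the chi-square between the 2 libraries was 3.26 per gene, against 99.8 to 165 between the replicates of each other group, which is above sampling noise yet far below the spread between other replicates. It also correlated more with replicate 2 than with replicate 1 of every other group. The values were 0.9671 and 0.9575 for WNT_CPI_ACT, 0.9835 and 0.9767 for WNT_CPI, and 0.9627 and 0.9609 for WNT_E7. Whether this column is a separate sample or a repeat of replicate 2 cannot be told apart here. It was kept as a library, and the fits without it hold E7_CPI as 1 library. The difference between replicate 1 and replicate 2 of E7_CPI correlated at -0.165 to -0.055 with that of the other groups. All 21 pairs of groups without E7_CPI correlated at 0.521 to 0.92. The E7_CPI difference belongs to both of its columns and is small, but a correlation does not depend on its size. The E7_CPI columns thus lacked the replicate difference that the other groups shared. The column enters the model, whose biological coefficient of variation was 0.271 with it and 0.29 without it, so the counts of called genes below are also given without it. All 12 markers of human embryonic stem cells were detected in every group, with summed levels of 5672 to 10940 CPM. Their levels were not all kept: NANOG had 0.809 to 1.31 CPM in WNT_CPI and E7_CPI, against 71.6 to 196 CPM in WNT and E7. PODXL and LIN28A made up most of the sum in WNT_CPI and E7_CPI. Summed levels were 1.17 to 22.8 CPM for 5 neural crest markers (SOX10 and TFAP2B at 0 in every group). They were 11.0 to 54.5 CPM for 7 markers of trophoblast and amnion, and 376 to 1016 CPM for 7 markers of fibroblasts. Most of the fibroblast sum was THY1 (147 to 813 CPM), COL1A1 and COL1A2. DCN was at 0 in every group, and COL3A1 and LUM reached at most 0.14 and 0.0274 CPM.

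EFNB2, SLIT2 and SEMA3C were given as markers with the set, and they were also its 3 genes called in WNT against E7. Their promoters are shown here. Each runs from 250 bases before to 50 bases after the start of the gene in RefSeq (GRCh38.p14) and is written 5′ to 3′ on the gene's own strand. EFNB2 lies at chr13:106535613-106535912 on the minus strand, SLIT2 at chr4:20251655-20251954 on the plus strand and SEMA3C at chr7:80922340-80922639 on the minus strand. Capitals mark matches, on either strand, to CTTTGA (the core letters of TCF/LEF sites), TATAAA (the core of the TATA box) or CAGAC (the core letters of SMAD sites).
EFNB2: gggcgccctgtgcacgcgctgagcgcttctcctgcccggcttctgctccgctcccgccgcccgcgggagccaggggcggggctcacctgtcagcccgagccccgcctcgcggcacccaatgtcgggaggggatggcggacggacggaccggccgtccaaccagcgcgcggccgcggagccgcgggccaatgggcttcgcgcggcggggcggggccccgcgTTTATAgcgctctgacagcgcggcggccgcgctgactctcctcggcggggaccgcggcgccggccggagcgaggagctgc
SLIT2: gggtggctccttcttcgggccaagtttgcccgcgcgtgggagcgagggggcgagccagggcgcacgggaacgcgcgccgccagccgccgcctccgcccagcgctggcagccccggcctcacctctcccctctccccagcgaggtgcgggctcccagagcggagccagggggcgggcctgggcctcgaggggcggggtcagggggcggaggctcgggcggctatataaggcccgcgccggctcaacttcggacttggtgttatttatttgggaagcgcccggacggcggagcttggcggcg
SEMA3C: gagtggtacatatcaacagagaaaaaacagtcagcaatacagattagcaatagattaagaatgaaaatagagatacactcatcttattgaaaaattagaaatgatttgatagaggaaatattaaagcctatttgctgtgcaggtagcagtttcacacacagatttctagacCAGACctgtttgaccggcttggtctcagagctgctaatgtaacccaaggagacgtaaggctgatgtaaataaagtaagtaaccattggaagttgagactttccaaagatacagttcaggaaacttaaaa
The EFNB2 and SLIT2 promoters held 78.7% and 74.3% G and C, and the SEMA3C promoter 36%. EFNB2 had 1 match to the TATA letters, on the opposite strand, SEMA3C had 1 match to CAGAC, and SLIT2 had no match to these letters in the window. The promoter of SEMA3A was sought as well and was not found. Promoters were found for 59 of the 69 genes. CTTTGA was present in 4 of these (6.78%) and in 12.9% of all 35116 promoters in the table, TATAAA in 1 (1.69%) and in 11.5%, and CAGAC in 22 (37.3%) and in 45.3%. These matches describe the letters alone.

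Levels are given as CPM on library totals scaled by edgeR, and they are compared between groups for a gene, not between genes, since gene length was not taken into account. The widest spans of group means, on the scale log2(CPM + 1), belonged to the secreted semaphorin SEMA3A (4.73), the ligand EFNB1 (4.49), the plexin PLXNA2 (3.94), the receptor EPHB3 (3.65) and the ligand EFNB2 (3.63). The narrowest among the tested genes belonged to NTN5 (0.39), SEMA4D (0.45) and SLIT3 (0.46). WNT_ACT and WNT_CPI each held the highest group mean of 13 genes. WNT_CPI and E7_CPI each held the lowest of 13 genes.

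**Figure D1:**
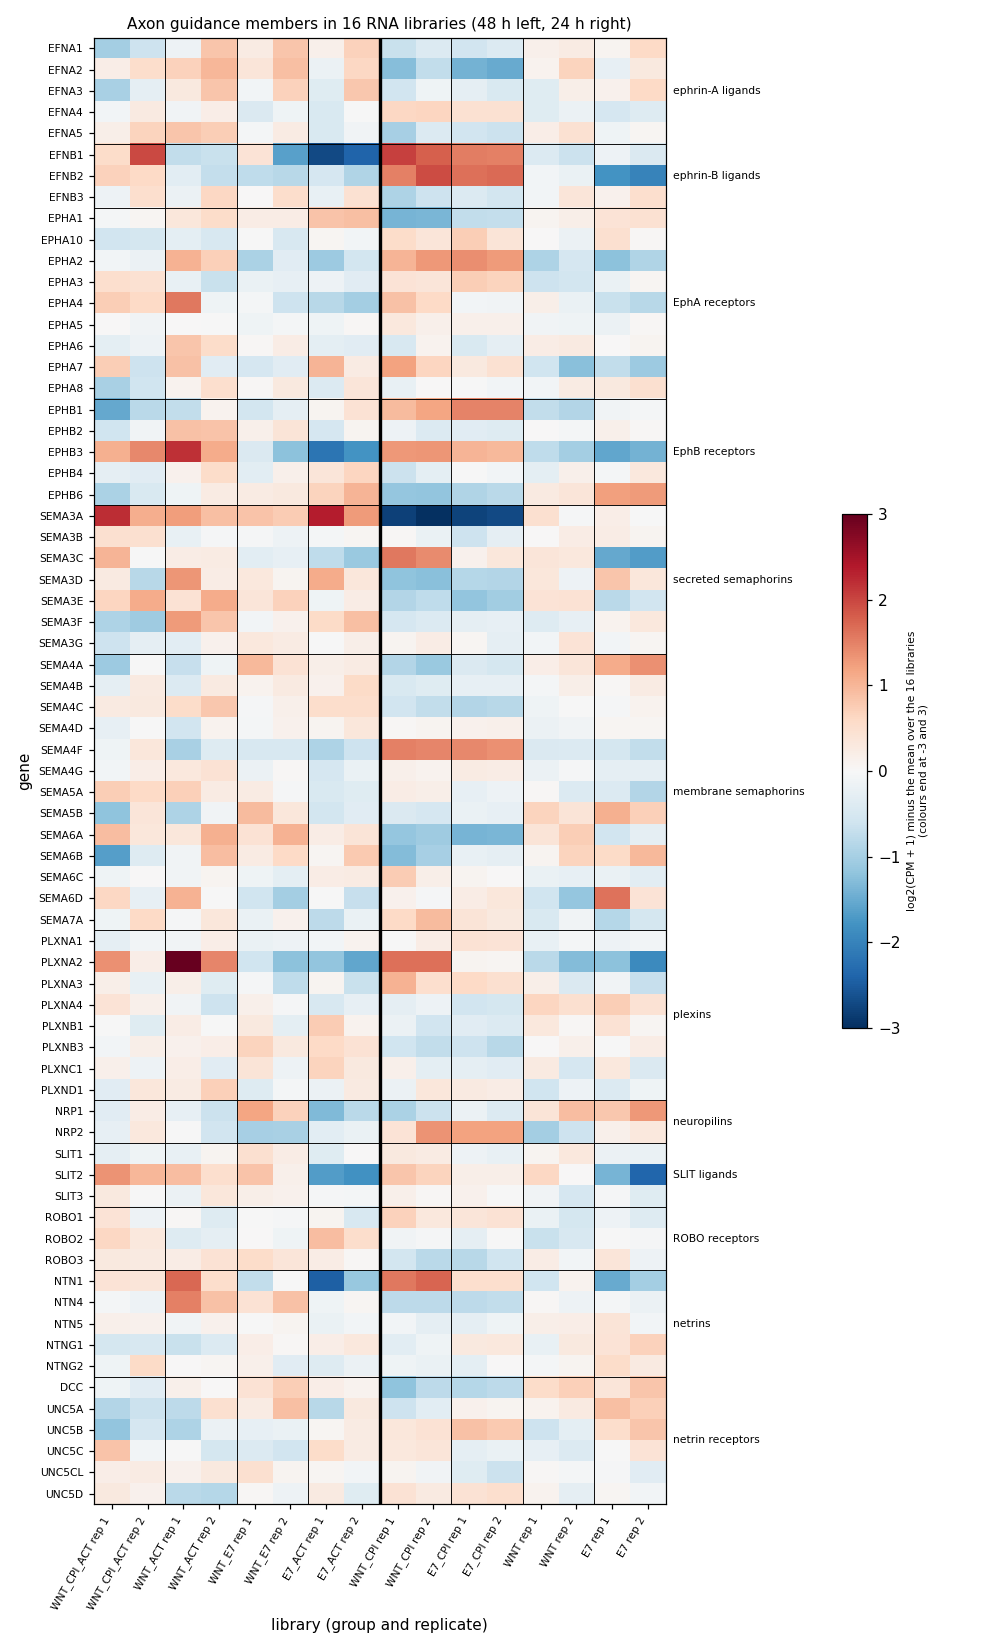
Level of each of the 69 genes in each of the 16 libraries as log2(CPM + 1) minus the gene's mean over the libraries, with genes in rows by role and libraries in columns, the 48 h groups left of the thick line. SEMA3A is dark blue in the 4 libraries of WNT_CPI and E7_CPI, where EFNB1, EFNB2, EPHB3 and SEMA4F are red, and PLXNA2 is darkest in WNT_ACT replicate 1.

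The comparison of WNT with E7 asks what 1 day of Wnt3a changed. A ligand of each of 3 families rose: EFNB2, an ephrin-B that signals in both directions, SLIT2, a ligand of the Robo receptors, and SEMA3C, a secreted semaphorin known for its part in the cardiac outflow tract. EFNB2 had 82.2 and 75.3 CPM in WNT, against 24.2 and 21.0 CPM in E7. SLIT2 had 133 and 87.3 CPM in WNT, against 32.7 and 16 CPM in E7. SEMA3C had 3.89 and 3.72 CPM in WNT, against 0.310 and 0.191 CPM in E7. For each of the 3 genes both WNT libraries lay above both E7 libraries, with the gap narrowest for SLIT2. Such separation, here and below, describes the values that the calls rest on and is no further support for them. The share of all genes that separate in this way is not given. The log2 fold changes were 1.80 for EFNB2 (SE 0.19, edgeR adjusted p = 0.00226), 2.18 for SLIT2 (SE 0.35, edgeR adjusted p = 0.0195) and 3.91 for SEMA3C (SE 0.45, edgeR adjusted p = 0.00331). In bulk RNA, a higher level per cell and more cells of a type cannot be told apart here or in any later comparison.

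No other gene of the set was called in WNT against E7, so 3 of 68 were higher and 0 lower. Of all 17355 genes tested, 0.605% were called, 0.484% higher and 0.121% lower. The median log2 fold change was -0.07 over the 68 genes and 0.02 over all genes. Without the E7_CPI replicate 1 column the same comparison called 3 genes of the set (0.427% of all genes). With the replicate number as a block and without that column, 7 of 68 were called (2.33% of all genes). Here and below, "with the block" means this fit, and "with the block only" means that edgeR called the gene in it and not in the fit without the block. The 4 added were SEMA3E, a ligand of plexin D1 (1.16, block adjusted p = 0.00184), SEMA6D, a membrane semaphorin (-2.88, block adjusted p = 0.000592), the netrin receptor UNC5B (-1.15, block adjusted p = 0.00378) and EPHB6, an Eph receptor without kinase activity (-0.98, block adjusted p = 0.00703). The DESeq2 Wald test also called 7 (1.29% of all genes). None of the 3 calls held without E7 replicate 2, where the adjusted p was 0.0662 for EFNB2, 0.0906 for SEMA3C and 0.177 for SLIT2. Without WNT replicate 1 the SLIT2 call was also lost (adjusted p = 0.146). The block with all 16 libraries called 7 (1.72% of all genes).

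Markers of primitive streak and mesendoderm, the first cells to leave pluripotency at gastrulation, were also higher in WNT. The summed level of the 7 listed was 43.7 and 28.5 CPM in WNT, against 1.05 and 0.86 CPM in E7 (CER1 at 0). EOMES, a transcription factor of the streak, had 38.7 and 24.0 CPM in WNT, against 0.262 and 0.0955 CPM in E7, and it made up most of the sum. EOMES was the 1 of 6 streak markers tested that rose (7.43, SE 1.33, edgeR adjusted p = 0.0336), and it was not called without the reordered column (0.0684). The part of streak cells in the values of EFNB2, SLIT2 and SEMA3C was not tested.

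**Figure D2:**
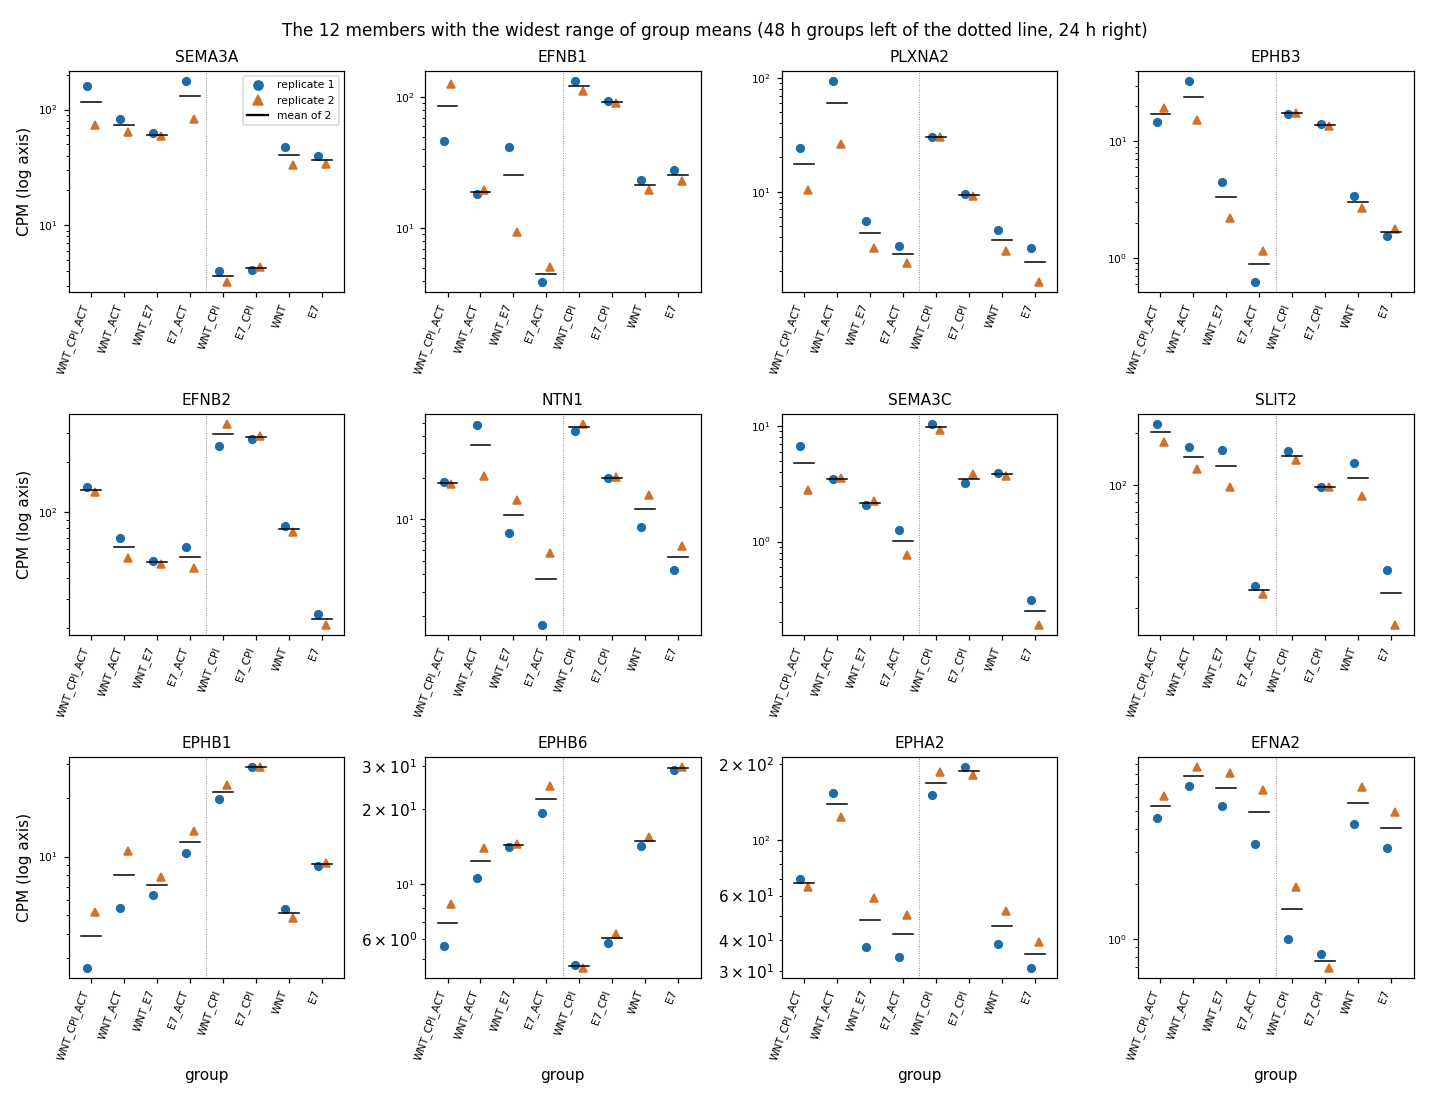
CPM on a log axis in each library of the 12 genes with the widest span of group means, by group, with replicate 1 as circles, replicate 2 as triangles and the mean of the 2 as a line. The 4 libraries of WNT_CPI and E7_CPI lie at 3.26 to 4.35 CPM for SEMA3A and at 90.6 to 133 CPM for EFNB1, and the 2 WNT_ACT libraries are far apart for PLXNA2.

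CPI-203 was given for 1 day with Wnt3a (WNT_CPI against WNT) and without it (E7_CPI against E7). The set split into a rising and a falling part in each. Among 68 genes, 18 rose and 17 fell in WNT_CPI against WNT, where 31% of all genes tested were called (13% higher, 17.9% lower), and 16 rose and 15 fell in E7_CPI against E7, where 32.7% were called (15% higher, 17.6% lower). The median log2 fold change was -0.02 over the set and -0.01 over all genes in WNT_CPI against WNT, and -0.41 and -0.05 in E7_CPI against E7. The calls shared by the 2 comparisons, which have no library in common, numbered 27, with 13 higher and 14 lower in both and 0 in opposite directions. They made up 77.1% of the calls of the set in WNT_CPI against WNT and 87.1% of those in E7_CPI against E7. Over all genes 4323 calls were shared, 80.4% of the calls in WNT_CPI against WNT and 76.2% of those in E7_CPI against E7, with 3 in opposite directions, so the shares of the set lay near those of all genes. The calls in E7_CPI against E7 count the reordered column as a second library. The shared calls were not recounted without it, and some of the shared genes then lost their call, as listed below. The reordered column lay nearer the replicate 2 libraries, while E7 holds both replicate numbers. Differences between the numbers therefore enter the log2 fold changes of E7_CPI against E7, and the interaction below, where no block was fitted. With the block, the pathway genes GPC1 and NRCAM, outside the set, went from 1.00 to 0.62 and from 0.97 to 1.33.

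Among the ephrin ligands, the ephrin-B genes EFNB1 and EFNB2 rose. EFNB1 had 133 and 111 CPM in WNT_CPI, against 23.3 and 19.6 CPM in WNT. EFNB1 had 93.4 and 90.6 CPM in E7_CPI, against 28.1 and 22.8 CPM in E7. Its groups did not overlap, and its log2 fold changes were 2.51 (SE 0.59, edgeR adjusted p = 0.00858) with Wnt3a and 1.85 (SE 0.58, edgeR adjusted p = 0.0311) without it. EFNB2 had 250 and 339 CPM in WNT_CPI and 277 and 285 CPM in E7_CPI, so that the libraries with CPI-203 overlapped, while the WNT and E7 libraries given above did not. Its log2 fold changes were 1.90 (SE 0.19, edgeR adjusted p = 6.17e-05) against WNT and 3.63 (SE 0.21, edgeR adjusted p = 3.04e-06) against E7. The third ephrin-B ligand, EFNB3, differed by -0.98 in WNT_CPI against WNT (edgeR adjusted p = 0.0588), and the fit with the block called it (0.0001).

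The ephrin-A ligands, which are tethered to the membrane by a lipid anchor, went both ways. EFNA2 had 1.00 and 1.92 CPM in WNT_CPI, against 4.24 and 6.80 CPM in WNT. EFNA2 had 0.823 and 0.697 CPM in E7_CPI, against 3.12 and 4.94 CPM in E7. All 4 libraries with CPI-203 lay below all 4 without it, and the gene fell by 1.91 (SE 0.44, edgeR adjusted p = 0.00778) with Wnt3a and fell by 2.40 (SE 0.46, edgeR adjusted p = 0.00281) without it. EFNA4 rose by 0.97 in each comparison (SE 0.21). EFNA5 fell by 1.09 in WNT_CPI against WNT (SE 0.25). EFNA1 (-1.28 with Wnt3a and -1.43 without it) was called with the block only, and EFNA3 (-0.86 without Wnt3a) likewise.

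Of the Eph receptors, EPHB3, EPHB1, EPHA2 and EPHA3 rose in both comparisons, and EPHB6 and EPHA1 fell in both. EPHB3, a receptor for ephrin-B ligands, had 17.3 and 17.6 CPM in WNT_CPI, against 3.42 and 2.66 CPM in WNT. EPHB3 had 14 and 13.6 CPM in E7_CPI, against 1.55 and 1.77 CPM in E7. EPHB3 thus stood several-fold higher in each library with CPI-203 (log2 fold changes 2.52, SE 0.43, and 3.06, SE 0.44). EPHB1, also a receptor of ephrin-B ligands, had 19.8 and 23.3 CPM in WNT_CPI, against 5.39 and 4.81 CPM in WNT. EPHB1 had 29.0 and 29.0 CPM in E7_CPI, against 8.94 and 9.27 CPM in E7. Its log2 fold changes were 2.08 (SE 0.34) and 1.67 (SE 0.34), and the 4 libraries with CPI-203 lay above the 4 without it.

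EPHA2, a receptor of ephrin-A ligands found on many epithelial cells, had 151 and 185 CPM in WNT_CPI, against 38.5 and 52.0 CPM in WNT. EPHA2 had 195 and 181 CPM in E7_CPI, against 31.1 and 39.4 CPM in E7. Its log2 fold changes were 1.89 (SE 0.26, edgeR adjusted p = 0.000394) and 2.42 (SE 0.27, edgeR adjusted p = 0.000108), and no library with CPI-203 overlapped a library without it. EPHA3 rose by 2.93 (SE 0.56) with Wnt3a, to 1.32 and 1.27 CPM in WNT_CPI against 0.141 and 0.196 CPM in WNT, and by 1.44 (SE 0.49) without it. EPHA7 rose in WNT_CPI against WNT (2.01, SE 0.55, edgeR adjusted p = 0.0177). In E7_CPI against E7 it was called with the block only (1.43, edgeR adjusted p = 0.065, block adjusted p = 0.00244). EPHA10, which lacks kinase activity, was called with the block only in WNT_CPI against WNT (0.99, block adjusted p = 0.0165). EPHB6 had 4.73 and 4.60 CPM in WNT_CPI, against 14.3 and 15.4 CPM in WNT. EPHB6 had 5.79 and 6.27 CPM in E7_CPI, against 28.8 and 29.7 CPM in E7, and the falls were by 1.67 (SE 0.21) and by 2.28 (SE 0.22). EPHA1 fell by 1.53 (SE 0.10, edgeR adjusted p = 5.28e-06) with Wnt3a and by 1.16 (SE 0.10, edgeR adjusted p = 3.1e-05) without it.

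The secreted semaphorins held the largest fall of the set, in SEMA3A, the prototype repellent ligand of NRP1. SEMA3A had 4.04 and 3.26 CPM in WNT_CPI, against 47.6 and 33.2 CPM in WNT. SEMA3A had 4.12 and 4.35 CPM in E7_CPI, against 39.5 and 33.9 CPM in E7. The 4 libraries with CPI-203 stood together far below the others, and the gene fell by 3.47 (SE 0.43, edgeR adjusted p = 0.000205) and by 3.11 (SE 0.42, edgeR adjusted p = 0.000369). SEMA3D fell by 2.61 (SE 0.65) with Wnt3a and by 2.30 (SE 0.62) without it. SEMA3E fell by 1.30 (SE 0.25) in WNT_CPI against WNT, and SEMA3B fell by 0.85 (SE 0.25) in E7_CPI against E7. SEMA3C went the other way: it had 10.5 and 9.20 CPM in WNT_CPI and 3.18 and 3.82 CPM in E7_CPI. SEMA3C rose by 1.37 (SE 0.37, edgeR adjusted p = 0.0173) against WNT and by 3.79 (SE 0.45, edgeR adjusted p = 0.000157) against E7.

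Among the membrane-bound semaphorins, SEMA4F rose by 2.02 (SE 0.23) with Wnt3a and by 2.16 (SE 0.24) without it, and SEMA7A, which has a lipid anchor and binds PLXNC1, by 1.09 (SE 0.29) and by 1.07 (SE 0.29). SEMA6C rose by 0.75 (SE 0.19) in WNT_CPI against WNT and SEMA4G by 0.54 (SE 0.16) in E7_CPI against E7. SEMA4A fell by 1.61 (SE 0.41) and by 1.99 (SE 0.41), SEMA4C by 0.59 (SE 0.12) and by 0.91 (SE 0.12), and SEMA6A, a ligand of PLXNA2 and PLXNA4, by 1.68 (SE 0.28) and by 0.97 (SE 0.28), in each case with Wnt3a first. SEMA6B fell by 1.59 (SE 0.46) with Wnt3a and was called with the block only without it (-1.06, block adjusted p = 0.00209). SEMA6D differed by 1.49 in WNT_CPI against WNT and was called with the block only (0.00108).

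PLXNA2, a receptor of membrane and secreted semaphorins, had 30.0 and 30.0 CPM in WNT_CPI, against 4.59 and 2.99 CPM in WNT. PLXNA2 had 9.47 and 9.15 CPM in E7_CPI, against 3.22 and 1.62 CPM in E7. Its log2 fold changes were 2.98 (SE 0.62, edgeR adjusted p = 0.00447) and 1.94 (SE 0.61, edgeR adjusted p = 0.0318), with no overlap between libraries with and without CPI-203. PLXNB3, a receptor of SEMA5A, fell by 2.31 (SE 0.47) and by 2.67 (SE 0.48), at a low level: it had 0.269 and 0.146 CPM in WNT_CPI, against 0.938 and 1.15 CPM in WNT. PLXNA4 fell by 1.01 (SE 0.28) with Wnt3a and by 1.56 (SE 0.28) without it. PLXNA1 rose by 0.54 (SE 0.14) and PLXNA3 was called with the block only (0.94, block adjusted p = 5.94e-05), both in E7_CPI against E7. The neuropilins, the co-receptors of secreted semaphorins, moved apart. NRP1 fell by 1.87 (SE 0.40) and by 1.62 (SE 0.39), and NRP2 rose by 1.78 (SE 0.31) and by 0.98 (SE 0.30), with Wnt3a first.

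In the Slit family, SLIT2 rose in E7_CPI against E7 (2.01, SE 0.35, edgeR adjusted p = 0.00151), with 98.3 and 98.3 CPM in E7_CPI. SLIT2 had 156 and 139 CPM in WNT_CPI, and its log2 fold change against WNT was 0.42 (SE 0.34, edgeR adjusted p = 0.394), called with the block (0.0485). The Slit receptors ROBO1 and ROBO2 rose by 0.87 (SE 0.25) and by 0.64 (SE 0.22) in WNT_CPI against WNT. ROBO3, which controls crossing of the midline by commissural axons, fell by 0.94 (SE 0.25) and by 1.03 (SE 0.25).

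Among the netrins, NTN1, the secreted attractant and repellent of the family, had 43.8 and 49.2 CPM in WNT_CPI, against 8.86 and 14.9 CPM in WNT. NTN1 had 20.01 and 20.1 CPM in E7_CPI, against 4.27 and 6.40 CPM in E7. Its libraries with CPI-203 lay above all those without it, and the log2 fold changes were 1.97 (SE 0.54, edgeR adjusted p = 0.0182) and 1.91 (SE 0.54, edgeR adjusted p = 0.0208). NTN4, a netrin of basement membranes, fell by 2.19 (SE 0.38) and by 1.97 (SE 0.38). DCC, the attractive netrin receptor, fell by 3.16 (SE 0.47, edgeR adjusted p = 0.000591) with Wnt3a, to 0.147 and 0.535 CPM in WNT_CPI against 2.86 and 3.30 CPM in WNT, and by 2.61 (SE 0.45, edgeR adjusted p = 0.0015) without it. UNC5B rose by 0.84 (SE 0.26) in WNT_CPI against WNT, and UNC5C was called there with the block only (1.75, block adjusted p = 0.0309).

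**Figure D3:**
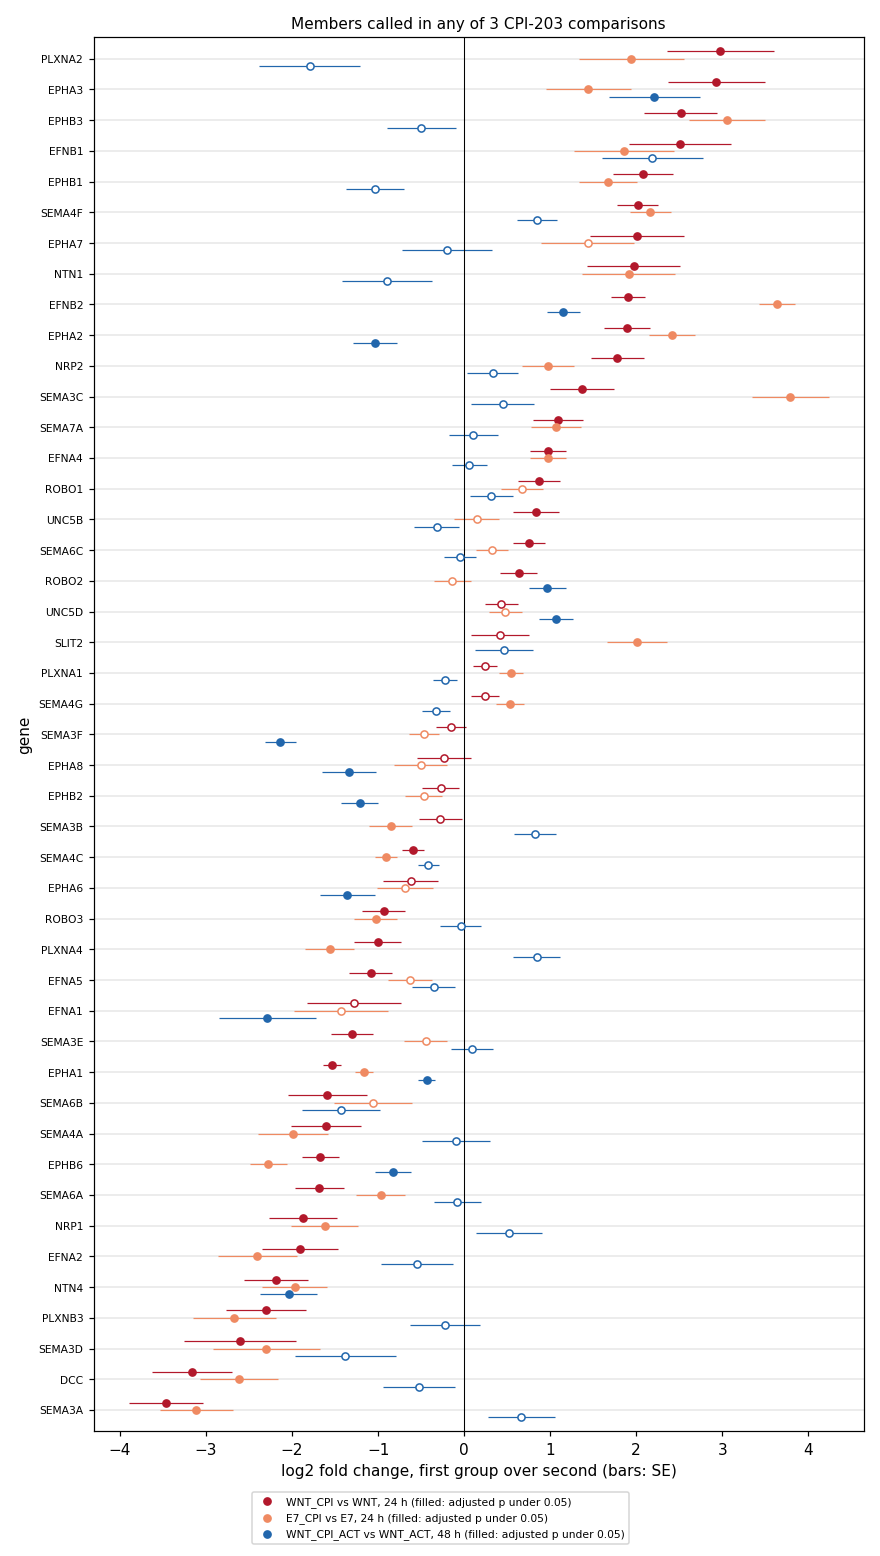
Log2 fold change (points, with bars of 1 SE) for each gene of the set called in any of 3 comparisons with and without CPI-203, with filled points where the adjusted p was under 0.05. SEMA3A lies at -3.47 and -3.11 in the 24 h comparisons and at 0.67 at 48 h, and PLXNA2 lies at 2.98 in WNT_CPI against WNT and at -1.80, not filled, in WNT_CPI_ACT against WNT_ACT.

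With the block, 49 of 68 genes of the set were called in WNT_CPI against WNT (52.9% of all genes) and 44 in E7_CPI against E7 (44%). That fit holds E7_CPI as 1 library, whose spread is assumed to be that of the other groups. The block with all 16 libraries called 47 in WNT_CPI against WNT (47.4% of all genes) and 46 in E7_CPI against E7 (50.8%). In it EPHA7, EFNA1, SEMA6B, PLXNA3 and EFNA3 were called in E7_CPI against E7 too. Without the E7_CPI replicate 1 column, 33 genes of the set were called in WNT_CPI against WNT (26.5% of all genes) and 19 in E7_CPI against E7 (17.5%). Among those lost from E7_CPI against E7 were EFNB1 (adjusted p = 0.1), NTN1 (0.072), PLXNA2 (0.101), EPHA3 (0.155), SEMA3D (0.0917), ROBO3 (0.0903), NRP2 (0.106), SEMA6A (0.111), SEMA7A (0.0814), SEMA3B (0.196), PLXNA1 (0.0707) and SEMA4G (0.12). In WNT_CPI against WNT, ROBO2 (0.0623) and UNC5B (0.0526) were lost. Leaving out E7_CPI replicate 2 gave 20 calls in E7_CPI against E7, and leaving out E7 replicate 1 gave 20. Leaving out WNT_CPI replicate 1 gave 23 calls in WNT_CPI against WNT. The calls of EFNB2, EPHB3, EPHB1, EPHA2, SEMA4F, SEMA3A, DCC, NTN4, PLXNB3, EPHB6 and EPHA1 held in both comparisons when any single library of the compared groups, or the reordered column, was left out. For the omission of libraries other than the reordered column, the share of all genes called is not given, here or below. Those counts describe the set alone and cannot be set against all genes.

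Markers of other cell types moved with CPI-203. Of 12 markers of neuroectoderm and neurons, 7 rose and 1 fell in WNT_CPI against WNT, and 6 rose and 1 fell in E7_CPI against E7. Their summed level was 2165 and 2192 CPM in WNT_CPI against 627 and 818 CPM in WNT. In E7_CPI it was 2139 and 2022 CPM against 503 and 601 CPM in E7. None of the 12 was at 0 in both libraries of a group. NES (759 and 572 CPM in WNT_CPI, 308 and 317 CPM in E7) and TUBB3 (1209 and 1446, 151 and 250) made up most of each sum. PAX6 had 0.171 and 0.17 CPM in WNT_CPI. DCX was lower with CPI-203, with 3.99 and 2.99 CPM in WNT_CPI against 26.8 and 20.3 CPM in WNT. Of the 12 stem cell markers, 9 fell in WNT_CPI against WNT and 7 in E7_CPI against E7. Of 4 endothelial markers tested, 3 fell in each comparison. Without the reordered column 8 neural, 7 stem cell and 3 endothelial markers were called in WNT_CPI against WNT, and 6, 7 and 2 in E7_CPI against E7. The summed level of the 5 endothelial markers was 29.7 and 34.9 CPM in WNT_CPI (CDH5 at 0) against 168 and 216 CPM in WNT. In E7_CPI it was 36.6 and 36 CPM against 125 and 130 CPM in E7. KDR (19.5 and 19.6 CPM in WNT_CPI, 106 and 147 CPM in WNT) and TEK (9.21 and 14.5, 60.3 and 67.4) made up most of each sum. In WNT, PECAM1 and CDH5 each had 0.187 and 0.14 CPM, and VWF had 1.41 and 1.15 CPM. Whether such cells were present was not tested, nor was their part in the values of the guidance genes.

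Whether the CPI-203 effect differed with Wnt3a was asked with the interaction of the agents at 24 h. The edgeR test called 0 of the 68 genes (0.0115% of all genes, all lower), and 8 had an unadjusted p under 0.05. The EFNB2 effect of CPI-203 with Wnt3a minus that without it was -1.73 on the log2 scale (SE 0.27, edgeR adjusted p = 0.101). With the replicate block its adjusted p was 0.0216 with the reordered column and 0.0513 without it, and DESeq2, which called 0.13% of all genes, called it alone of the set (adjusted p = 9.52e-06). SEMA3C differed by -2.42 (SE 0.57, edgeR adjusted p = 0.764) and SLIT2 by -1.60 (SE 0.48, edgeR adjusted p = 0.995). Without the reordered column the edgeR fit called 0 of the set (0.00562% of all genes), and with the block 0 (0.0393%), while the block with all 16 libraries called EFNB2 (0.127% of all genes). SEMA3C and SLIT2 were not called with the block (0.227 and 0.0586) or by DESeq2 (0.0511 and 0.282).

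At 48 h, WNT_ACT against E7_ACT asks what Wnt3a on day 1 changed in cells that all received Activin A on day 2. In this comparison 13 of 68 genes of the set rose and 4 fell, and 3.84% of all genes were called (2.48% higher, 1.36% lower). The set's median log2 fold change was 0.17, and that of all genes -0.01. Receptors led the rises. EPHB3 had 33.0 and 15.1 CPM in WNT_ACT, against 0.625 and 1.14 CPM in E7_ACT. PLXNA2 had 94.3 and 26.2 CPM in WNT_ACT, against 3.32 and 2.35 CPM in E7_ACT. The WNT_ACT libraries of these genes were far apart, yet both lay above both E7_ACT libraries. EPHB3 rose by 4.77 (SE 0.48, edgeR adjusted p = 0.000988) and PLXNA2 by 4.41 (SE 0.66, edgeR adjusted p = 0.00632). EPHA2 had 154 and 123 CPM in WNT_ACT, against 34.1 and 50.1 CPM in E7_ACT, and rose by 1.72 (SE 0.26, edgeR adjusted p = 0.00677). EPHA4, which binds ephrins of both classes, rose by 1.98 (SE 0.44), EPHA6 by 1.53 (SE 0.32) and EPHB2 by 1.06 (SE 0.22). EPHA1 fell by 0.44 (SE 0.10).

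Among the ligands, SLIT2 had 166 and 123 CPM in WNT_ACT, against 26.5 and 24.1 CPM in E7_ACT. NTN1 had 48.3 and 20.5 CPM in WNT_ACT, against 1.73 and 5.72 CPM in E7_ACT. SEMA3C had 3.46 and 3.56 CPM in WNT_ACT, against 1.25 and 0.760 CPM in E7_ACT. All 3 ligands were higher in both WNT_ACT libraries. SLIT2 rose by 2.52 (SE 0.36, edgeR adjusted p = 0.0049), NTN1 by 3.21 (SE 0.57, edgeR adjusted p = 0.0141) and SEMA3C by 1.80 (SE 0.39, edgeR adjusted p = 0.0321). NTN4 rose by 1.91 (SE 0.33), EFNA5 by 1.12 (SE 0.25), the membrane semaphorin SEMA5A by 0.95 (SE 0.22) and SEMA4G by 0.77 (SE 0.16). EFNB2, which had risen with Wnt3a at 24 h, had 70.2 and 52.5 CPM in WNT_ACT against 61.2 and 46.1 CPM in E7_ACT. These groups overlap, although WNT_ACT was the higher within each replicate number (0.19, SE 0.19, edgeR adjusted p = 0.862). The membrane-anchored netrin NTNG1 fell by 1.69 (SE 0.38), ROBO2 by 1.26 (SE 0.22) and UNC5D, a netrin receptor that also binds FLRT2, by 0.83 (SE 0.19). The calls of SLIT2 and SEMA3C were shared with WNT against E7, which has no library in common with this comparison: 2 of 17 calls here (11.8%) and 2 of 3 there (66.7%). Over all genes the shared calls made up 10.2% and 64.8%.

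Without the E7_CPI replicate 1 column 7 calls were left in WNT_ACT against E7_ACT (2.13% of all genes): EPHB3, PLXNA2, NTN1, SLIT2, NTN4, EPHA2 and ROBO2. Leaving out WNT_ACT replicate 1 gave 4 calls, E7_ACT replicate 1 gave 1 and E7_ACT replicate 2 gave 7. EPHB3 was the gene still called in each of these. The block called 25 (11.4% of all genes), and with all 16 libraries 21 (8.69%). Called with the block only were EPHB6 (-0.84), PLXNC1 (-0.69), EFNA2 (0.66), SEMA3E (0.78) and SEMA6D (1.27). Of 6 markers of primitive streak and mesendoderm tested, 5 rose in WNT_ACT against E7_ACT, 2 of 6 were called without the reordered column and 5 with the block. The summed level of the 7 listed was 3433 and 357 CPM in WNT_ACT, against 36.7 and 17.7 CPM in E7_ACT (SOX17 at 0). WNT_ACT replicate 1, which was the highest of the 4 libraries compared for PLXNA2, EPHB3, NTN1 and EPHA4 (60.2 and 17.7 CPM in WNT_ACT), was also the library with the higher streak level. The part of streak cells in these values was not tested.

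WNT_ACT against WNT_E7 asks what Activin A changed on day 2 in cells given Wnt3a on day 1. Of 68 genes, 5 rose and 0 fell, with 0.882% of all genes called (0.68% higher, 0.202% lower), and the set's median log2 fold change was 0.18 (all genes -0.01). PLXNA2 had 94.3 and 26.2 CPM in WNT_ACT, against 5.53 and 3.18 CPM in WNT_E7 (3.79, SE 0.64, edgeR adjusted p = 0.0314). EPHB3 had 33.0 and 15.1 CPM in WNT_ACT, against 4.47 and 2.19 CPM in WNT_E7 (2.85, SE 0.43, edgeR adjusted p = 0.0271). EPHA2 had 154 and 123 CPM in WNT_ACT, against 37.7 and 58.7 CPM in WNT_E7 (1.52, SE 0.26, edgeR adjusted p = 0.0314). These 3 receptors were higher in each WNT_ACT library than in either WNT_E7 library. SEMA3F, a secreted ligand of NRP2, rose by 1.07 (SE 0.18, edgeR adjusted p = 0.0312) and SEMA4C by 0.64 (SE 0.12, edgeR adjusted p = 0.0456). SLIT2 had 166 and 123 CPM in WNT_ACT against 159 and 97.2 CPM in WNT_E7 (0.18, SE 0.34). These groups overlapped, although WNT_ACT was the higher within each replicate number, and SLIT2 was not called. EFNB2 differed by 0.30 (SE 0.19) and SEMA3C by 0.70 (SE 0.37), and neither was called (edgeR adjusted p = 0.75 and 0.631).

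None of these 5 calls was left without the E7_CPI replicate 1 column (0.124% of all genes called; adjusted p = 0.0644 for EPHB3, 0.0699 for PLXNA2, 0.0746 for EPHA2, 0.0699 for SEMA3F and 0.102 for SEMA4C), and none without WNT_ACT replicate 1, WNT_E7 replicate 1 or WNT_E7 replicate 2. With the block and without the reordered column 13 genes were called (6.35% of all genes), the block with all 16 libraries called 11 (4.45%), and DESeq2 called 9 (2.91%). The block added EPHA4 (1.33), SEMA6D (2.12), NRP1 (-1.67), NTNG1 (-1.46) and UNC5D (-0.79) among others. Of 6 streak markers tested, 2 rose in WNT_ACT, whose summed levels are given above, against 9.93 and 7.46 CPM in WNT_E7 (SOX17 at 0). Without the reordered column 0 of the 6 were called, and with the block all 6 were called higher. The part of streak cells in the guidance genes was not tested here either.

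**Figure D4:**
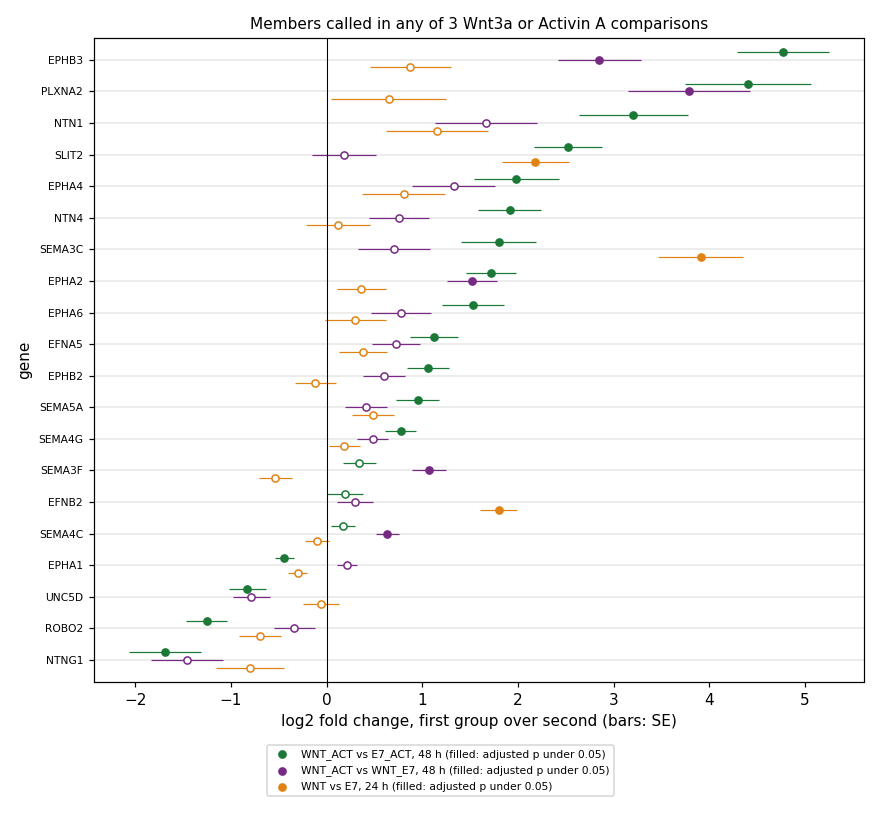
Log2 fold change (points, with bars of 1 SE) for each gene of the set called in any of 3 comparisons of Wnt3a or Activin A, with filled points where the adjusted p was under 0.05. EPHB3 and PLXNA2 lie at 2.85 to 4.77 in both 48 h comparisons, and SEMA3C, SLIT2 and EFNB2 are the filled points of WNT against E7.

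WNT_CPI_ACT against WNT_ACT asks what CPI-203 on day 1 left on day 2. Of 68 genes, 4 rose and 9 fell, with 5.9% of all genes called (1.9% higher, 4% lower), and the set's median log2 fold change was -0.15 (all genes 0.00). EFNB2 was still higher, with 141 and 132 CPM in WNT_CPI_ACT against 70.2 and 52.5 CPM in WNT_ACT (1.15, SE 0.19, edgeR adjusted p = 0.00838). EPHA3 rose by 2.21 (SE 0.53, edgeR adjusted p = 0.0357), UNC5D by 1.07 (SE 0.19, edgeR adjusted p = 0.0118) and ROBO2 by 0.96 (SE 0.22, edgeR adjusted p = 0.0273). SEMA3F had 18.7 and 17.1 CPM in WNT_CPI_ACT, against 91.1 and 66.5 CPM in WNT_ACT (-2.13, SE 0.18, edgeR adjusted p = 0.000276). NTN4 had 1.01 and 0.895 CPM in WNT_CPI_ACT, against 5.0 and 2.85 CPM in WNT_ACT (-2.04, SE 0.33, edgeR adjusted p = 0.00809). Neither gene's groups overlapped. EFNA1 fell by 2.29 (SE 0.56), EPHA6 by 1.36 (SE 0.32), EPHA8 by 1.34 (SE 0.32), EPHB2 by 1.22 (SE 0.22), EPHA2 by 1.04 (SE 0.26), EPHB6 by 0.82 (SE 0.21) and EPHA1 by 0.44 (SE 0.10). With the exception of the ligands EFNA1, SEMA3F and NTN4, the genes that fell were Eph receptors.

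EPHA2 had 69.7 and 65.1 CPM in WNT_CPI_ACT against 154 and 123 CPM in WNT_ACT, the opposite direction to WNT_CPI against WNT. Of the 13 calls, 7 were shared with WNT_CPI against WNT (53.8% of the calls here and 20% there), which uses other libraries, 6 of them in the same direction and 1, EPHA2, in the opposite one. Over all genes 635 calls were shared (62% and 11.8%), 534 in the same direction and 101 in the opposite one. SLIT2 had 224 and 176 CPM in WNT_CPI_ACT, against 166 and 123 CPM in WNT_ACT (0.47, SE 0.34, edgeR adjusted p = 0.56). SEMA3C had 6.76 and 2.81 CPM in WNT_CPI_ACT, against 3.46 and 3.56 CPM in WNT_ACT (0.45, SE 0.37, edgeR adjusted p = 0.643). Neither was called, and the SEMA3C groups overlapped. EFNB1 had 46.5 and 126 CPM in WNT_CPI_ACT, against 18.3 and 19.5 CPM in WNT_ACT (2.19, SE 0.59, edgeR adjusted p = 0.0551). The block called it (0.0209). The block also added PLXNA2 (-1.80), SEMA6B (-1.43), SEMA3D (-1.38) and EFNA3 (-1.34) among others, to give 25 calls (20.2% of all genes). With all 16 libraries it also gave 25 (15.1%), and DESeq2 called 21 (7.74%).

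Without the E7_CPI replicate 1 column 6 calls were left in WNT_CPI_ACT against WNT_ACT (3.64% of all genes): SEMA3F, NTN4, EPHB2, ROBO2, UNC5D and EFNB2. Leaving out WNT_CPI_ACT replicate 1 gave 6 calls, WNT_CPI_ACT replicate 2 gave 5 and WNT_ACT replicate 2 gave 5. The SEMA3F call held in each of these. Of the 12 markers of neuroectoderm and neurons, 3 rose. Their summed levels, again mostly NES and TUBB3, were 880 and 1128 CPM in WNT_CPI_ACT against 784 and 847 CPM in WNT_ACT. The streak list stood at 394 and 36.3 CPM in WNT_CPI_ACT against 3433 and 357 CPM in WNT_ACT. The edgeR test without the block called 0 of 6 streak markers (3 had an unadjusted p under 0.05), and with the block all 6 were called lower. The part of either in the guidance genes was not tested.

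WNT_CPI_ACT against WNT_CPI sets cells collected after the Activin A day beside cells collected before it. Here 14 of 68 genes rose and 9 fell, and 26.9% of all genes were called (14.9% higher, 12% lower), with medians of 0.03 for the set and -0.01 for all genes. SEMA3A had 161 and 73.2 CPM in WNT_CPI_ACT, against 4.04 and 3.26 CPM in WNT_CPI. Both later libraries lay above both earlier ones, and SEMA3A rose by 5.0 (SE 0.46, edgeR adjusted p = 4.25e-05). PLXNB3 rose by 2.24 (SE 0.46), SEMA3D by 2.19 (SE 0.65), NTN4 by 2.10 (SE 0.38), DCC by 1.87 (SE 0.46), EFNA2 by 1.85 (SE 0.44), SEMA3E by 1.79 (SE 0.25), SEMA6A by 1.78 (SE 0.29), EPHA1 by 1.41 (SE 0.10), EFNA5 by 1.22 (SE 0.25), ROBO3 by 1.17 (SE 0.25) and SEMA4C by 0.95 (SE 0.12). These were all genes that had fallen in WNT_CPI against WNT, a comparison that shares the WNT_CPI libraries with this one. The other 2 rises were SEMA3B (0.75, SE 0.24) and ROBO2 (0.65, SE 0.21).

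EPHB1 had 2.68 and 5.15 CPM in WNT_CPI_ACT, against 19.8 and 23.3 CPM in WNT_CPI (-2.46, SE 0.35, edgeR adjusted p = 0.000575). EFNB2 had 141 and 132 CPM in WNT_CPI_ACT, against 250 and 339 CPM in WNT_CPI (-1.11, SE 0.19, edgeR adjusted p = 0.00164). EPHA2 had 69.7 and 65.1 CPM in WNT_CPI_ACT, against 151 and 185 CPM in WNT_CPI (-1.32, SE 0.26, edgeR adjusted p = 0.00353). All 3 were lower in both later libraries. EPHA10 fell by 2.35 (SE 0.47), SEMA4F by 1.42 (SE 0.23), UNC5B by 1.21 (SE 0.27), NRP2 by 0.90 (SE 0.30), SEMA3F by 0.57 (SE 0.17) and SEMA6C by 0.57 (SE 0.19). EPHB3 had 14.7 and 19.4 CPM in WNT_CPI_ACT, against 17.3 and 17.6 CPM in WNT_CPI, and PLXNA2 had 24.4 and 10.3 CPM in WNT_CPI_ACT, against 30.0 and 30.0 CPM in WNT_CPI. Neither was called, although PLXNA2 was with the block (-0.79, block adjusted p = 0.0316). SLIT2 differed by 0.44 (SE 0.34, edgeR adjusted p = 0.382). SEMA3C (-1.04, edgeR adjusted p = 0.0595), NTN1 (-1.34), EPHA8 (-0.85), NRP1 (1.03) and EFNB3 (1.04) were called with the block only, which gave 41 calls (48.4% of all genes, or 37 and 42.7% with all 16 libraries). Without the E7_CPI replicate 1 column 19 calls were left (22.8%), with NRP2 (adjusted p = 0.07), SEMA6C (0.0679), SEMA3F (0.0572) and ROBO2 (0.0609) lost.

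Cell type markers differed in WNT_CPI_ACT against WNT_CPI as well. Of 12 stem cell markers, 7 rose, POU5F1 and NANOG among them, and their summed level was 7655 and 9101 CPM in WNT_CPI_ACT against 5672 and 6449 CPM in WNT_CPI. Of 12 markers of neuroectoderm and neurons, 1 rose and 5 fell. Their sums, again mostly NES and TUBB3, were 880 and 1128 CPM in WNT_CPI_ACT against 2165 and 2192 CPM in WNT_CPI. The endothelial sums, mostly KDR and TEK, were 192 and 157 CPM in WNT_CPI_ACT against 29.7 and 34.9 CPM in WNT_CPI. Of 4 endothelial markers tested, 3 rose. These counts were the same without the reordered column. The part of these cell types in the guidance genes was not tested.

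The change of the CPI-203 effect between the days was tested as the difference between WNT_CPI_ACT against WNT_ACT and WNT_CPI against WNT. Of 68 genes, 8 had a higher and 8 a lower log2 effect at 48 h than at 24 h, and 13.3% of all genes were called, 7.73% higher and 5.6% lower (medians -0.24 for the set and 0.00 for all genes). SEMA3A had the most positive difference, 4.13 (SE 0.57, edgeR adjusted p = 0.00126): its effect was -3.47 at 24 h and 0.67 at 48 h. PLXNA2 had the most negative, -4.77 (SE 0.85, edgeR adjusted p = 0.005), with effects of 2.98 at 24 h and -1.80 at 48 h. EPHB1 (-3.12, SE 0.48), EPHB3 (-3.01, SE 0.58), EPHA2 (-2.93, SE 0.37), NTN1 (-2.87, SE 0.75), SEMA3F (-1.99, SE 0.25), NRP2 (-1.45, SE 0.42) and SEMA4F (-1.17, SE 0.32) also had a lower effect on the later day. All of these except SEMA3F had risen in WNT_CPI against WNT. DCC (2.64, SE 0.62), NRP1 (2.39, SE 0.55), PLXNB3 (2.09, SE 0.62), PLXNA4 (1.85, SE 0.39), SEMA6A (1.60, SE 0.39), SEMA3E (1.39, SE 0.35) and EPHA1 (1.09, SE 0.14) had a higher one, and all 7 had fallen in WNT_CPI against WNT. The same WNT_CPI and WNT libraries enter the difference.

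EFNB2 differed by -0.75 between days (SE 0.26, edgeR adjusted p = 0.0911, block adjusted p = 0.029), SEMA3C by -0.92 (SE 0.52, edgeR adjusted p = 0.307) and SLIT2 by 0.05 (SE 0.47, edgeR adjusted p = 0.974). The block gave 40 calls (33.3% of all genes, or 35 and 26.9% with all 16 libraries), among them EPHA7 (-2.21), SEMA6D (-1.95), EPHA10 (-1.54), UNC5B (-1.16) and EFNA2 (1.36), which were called with the block only. Without the E7_CPI replicate 1 column 14 were called (10.1%), with NRP2 (adjusted p = 0.0727) and SEMA4F (0.0633) lost. Leaving out WNT_CPI replicate 1 gave 10 calls and WNT replicate 2 gave 8. The CPI-203 effect was also higher at 48 h than at 24 h for 7 of 12 stem cell markers (6 without the reordered column, 11 with the block) and for 3 of 4 endothelial markers. It was higher for 1 and lower for 2 of the 12 markers of neuroectoderm and neurons. The part of these cell types in the change between days was not tested.

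Other genes of the pathways were counted in the same fits, 56 of them tested. The shares of all genes called in these fits are given above. They are adaptors, GTPase regulators, kinases and cytoskeletal proteins, together with ligands, receptors and adhesion molecules outside the families above. In WNT against E7, 2 rose: RGMB, a ligand of the netrin receptor NEO1 (2.24, SE 0.22), and FLRT2, a ligand of UNC5D (0.96, SE 0.15). In WNT_CPI against WNT, 14 rose and 7 fell (37.5% of the 56, against 31% of all genes), and in E7_CPI against E7, 10 rose and 7 fell (30.4%, against 32.7%). Without the reordered column 17 and 10 were called, and with the block 30 and 27. MICAL2, an oxidase that disassembles actin, rose by 2.89 (SE 0.31) and by 2.81 (SE 0.31), and the Rac activator TIAM1 by 1.75 (SE 0.23) and by 1.79 (SE 0.23). TYRO3, a receptor tyrosine kinase, fell by 2.36 (SE 0.23) and by 2.04 (SE 0.22). RGMB fell by 1.65 (SE 0.21) in WNT_CPI against WNT and rose by 0.61 (SE 0.21, edgeR adjusted p = 0.0455) in E7_CPI against E7, a call lost without the reordered column (0.146). The edgeR interaction test called 0 of the 56, with 1, RGMB, at an unadjusted p under 0.05, which was called with the block.

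At 48 h, FLRT2 (3.30, SE 0.17) and RGMB (1.80, SE 0.21) rose in WNT_ACT against E7_ACT, where the block called 10 of the 56. In WNT_ACT against WNT_E7, FLRT2 rose (1.19, SE 0.15) and was the 1 gene called without the block, while with it 6 were higher and 6 lower. In WNT_CPI_ACT against WNT_ACT, 3 rose and 1 fell: ISLR2 (5.74, SE 0.74), DRAXIN, a secreted ligand of DCC (1.79, SE 0.21), RGMA (1.47, SE 0.31) and VAV3 (-1.80, SE 0.41). The VAV3 call was lost without the reordered column (adjusted p = 0.052), and the block called 14. In WNT_CPI_ACT against WNT_CPI, 11 rose and 7 fell (17 called without the reordered column, 30 with the block), with MICAL2 the lowest (-3.20, SE 0.32). The effect of CPI-203 was higher at 48 h than at 24 h for 8 of the 56 and lower for 6 (11 called without the reordered column, 28 with the block).

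Reads of a gene and of its antisense partner cannot be told apart where counting ignored the strand, which the sources used here do not state. Antisense genes with counts in most libraries are listed for EPHA1, SEMA6A, UNC5B and SEMA3F.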

How the data were processed

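RNA was measured by sequencing in 16 libraries of 8 groups. The authors deposited raw counts per gene in a table for each replicate number, made with featureCounts per the submitters' processing notes. The aligner, genome build and strand setting of the RNA counts are not given in the sources used here. Rows of the E7_CPI replicate 1 column were taken in the order of the other table, and its 12 empty cells were left out. A combined list of ATAC peak positions was not used here, since it holds no values and its build is not named.

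Counts of the 27348 genes in both tables were filtered with filterByExpr, scaled by TMM (factors 0.948 to 1.049) and fitted with edgeR 4.0.16 in R 4.3.3, as 1 model of 8 groups with 8 residual degrees of freedom. Each comparison was tested by the quasi-likelihood F-test with Benjamini-Hochberg adjustment over all 17355 genes tested, and genes with an adjusted p under 0.05 were called. DESeq2 1.42.0, DESeq2 size factors, library totals, no filter, a replicate block and the omission of single libraries were alternatives. The edgeR fit without the block was tested on simulated data for WNT_CPI against WNT. That simulation had large changes, independent libraries, no shared replicate deviation and no closely alike columns. The other fits and comparisons were not simulated. Same-numbered libraries deviated together in all 21 pairs of groups without E7_CPI (correlation 0.521 to 0.92 over 13793 genes), so the numbers pair those libraries. They did not in the 7 pairs with E7_CPI, and the block was therefore also fitted without the reordered column, an alternative chosen after seeing the data.

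The genes and lists were chosen with earlier results of these data known. In each comparison the rule named the called genes, up to 12 higher and 12 lower by size of the log2 fold change, EFNB2, SLIT2 and SEMA3C throughout, and the 5 largest called with the block only. The remaining called genes were named after their values were seen.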

Additional observations from a re-analysis of the deposited data

Results flagged for a closer look

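For 16 genes of the set, the effect of CPI-203 differed between the days by a test of the difference itself (WNT_CPI_ACT against WNT_ACT minus WNT_CPI against WNT, edgeR quasi-likelihood test with Benjamini-Hochberg adjustment over all genes). Among the ligands, the difference in log2 fold change was 4.13 for SEMA3A, 1.39 for SEMA3E, 1.60 for SEMA6A, -1.99 for SEMA3F, -1.17 for SEMA4F and -2.87 for NTN1. Among the Eph receptors it was 1.09 for EPHA1, -2.93 for EPHA2, -3.12 for EPHB1 and -3.01 for EPHB3. Among the receptors of semaphorins it was 2.09 for PLXNB3, 1.85 for PLXNA4, -4.77 for PLXNA2, 2.39 for NRP1 and -1.45 for NRP2, and for the netrin receptor DCC it was 2.64. The calls of EPHA1, EPHA2, EPHB1, EPHB3, PLXNA2, PLXNA4, SEMA3A and SEMA3F held when any single library of the 4 groups, or the reordered column, was left out.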

How the results depend on the processing

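No filter on low counts, DESeq2 size factors and library totals kept every count of called genes of the set within 1.5 times. The replicate block with all 16 libraries gave 7 calls in WNT against E7 (1.72% of all genes), 1 in the interaction (EFNB2; 0.127%), 11 in WNT_ACT against WNT_E7 (4.45%), 25 in WNT_CPI_ACT against WNT_ACT (15.1%), 37 in WNT_CPI_ACT against WNT_CPI (42.7%) and 35 in the change between days (26.9%). The block without the reordered column gave 7, 13, 25, 41 and 40 in the same comparisons other than the interaction. It gave 44 in E7_CPI against E7, 50 in WNT_CPI against WNT (with EPHA5, tested there) and 25 in WNT_ACT against E7_ACT. DESeq2 gave 7 calls in WNT against E7, 1 in the interaction, 9 in WNT_ACT against WNT_E7 and 21 in WNT_CPI_ACT against WNT_ACT.

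Leaving out single libraries gave 0 to 3 calls in WNT against E7, 19 to 23 in E7_CPI against E7, 23 to 33 in WNT_CPI against WNT, 0 in the interaction, 1 to 13 in WNT_ACT against E7_ACT, 0 to 5 in WNT_ACT against WNT_E7, 5 to 9 in WNT_CPI_ACT against WNT_ACT, 16 to 19 in WNT_CPI_ACT against WNT_CPI and 8 to 15 in the change between days. Each omission leaves fewer libraries, and the number of calls left also differed with the library omitted. These counts describe the set alone, since shares of all genes are given only for the omission of the reordered column. Why calls were lost was not tested. Of single genes with a turned direction, the values over single omissions were -0.03 to 0.41 for EFNB2 in WNT_ACT against E7_ACT, -0.13 to 0.57 for SLIT2 in WNT_ACT against WNT_E7, -0.32 to 0.94 for SEMA3C in WNT_CPI_ACT against WNT_ACT and -0.29 to 0.32 for SLIT2 in the change between days. None of these was called with all libraries. With 2 libraries in a group, the spread rests on the pooled estimate, and genes below about 1 CPM have wide errors.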
